A study of Mus musculus with 8 samples.

Results

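miR-132 and miR-212 are a pair of microRNAs (miRNAs) cut from neighbouring hairpins, and they were read here on 8 single-colour miRNA arrays of mouse microvascular smooth muscle cells. The members are all spots that are not controls and whose name on the array is mmu-miR-132 or mmu-miR-212, which gave 40 spots per array from 4 probes, of 13000 spots from 1857 probes for 650 miRNAs in all. Each member had 2 probes of 10 printed spots (20 spots per array), and no other mature form of either hairpin was on the array. The tested cells carried the RapCA construct (4 cultures, called RapCA) and were set against cells that carried the empty shuttle vector (4 cultures, called Control). All 8 cultures were of male C57BL6 origin and lacked Rap1a (Rap1a -/-), so the Control cells are not wild type, and RapCA is described no further in the sources used here. Cells were grown in 10% serum, exposed to virus overnight without serum and then kept in 0.5% serum for 48 h, after which RNA was prepared. The labels call the 4 cultures of each group biological replicates without saying where each came from, so the tests reflect variation among these cultures alone.

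miRNAs are short RNAs that lower the output of messenger RNAs by pairing with them, mostly through the seed, bases 2 to 8 from the 5′ end. miR-132 and miR-212 arise from one primary transcript whose promoter is bound by CREB, the transcription factor that is activated when cyclic AMP rises, and the pair is best known from neurons, where activity induces it. In vascular smooth muscle the pair is known to respond to angiotensin II, and reported targets of miR-132 include the Ras inhibitor p120RasGAP. Rap1, the small GTPase missing in its 1a form from these cells, is itself switched on by cyclic AMP through the exchange factor Epac. The comparison therefore asks whether miRNAs that serve as a readout of CREB differ once RapCA is supplied.

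The mature sequences are shown because the seed decides which messages a miRNA pairs with, and the capitals mark it. They are RefSeq's 3p arms on build GRCm38.p6, the arm to which the array's names without a suffix belonged in the nomenclature of that time, and both members matched. The array files give no probe sequence.
miR-132-3p: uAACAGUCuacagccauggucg
miR-212-3p: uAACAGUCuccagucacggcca
Over their 22 bases the pair had 17 in common without a gap. Counted from 1 at the 5′ end of miR-132-3p, the differences were A10C, C14U, U17C, U20C and G22A, so all 5 lay outside the seed. Of 1679 mouse mature names in the RefSeq table, 2 had this seed, and they were the pair itself.

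The hairpins are shown with the 3p arm in capitals, the arm that the array's names are taken to mean. This was not checked against the probes.
Mir212: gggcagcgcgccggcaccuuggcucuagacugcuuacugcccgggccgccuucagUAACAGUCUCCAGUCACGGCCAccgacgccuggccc
Mir132: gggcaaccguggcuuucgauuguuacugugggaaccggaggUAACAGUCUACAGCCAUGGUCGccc
Mir212 lies at chr11:75173388-75173478 and Mir132 at chr11:75173682-75173747, both on the plus strand of GRCm38.p6. The genes are separated by 203 bases. The gene Hic1, which encodes a transcriptional repressor, lies 3132 bases away. The 1 annotated miRNA gene within 1 Mb that had probes on the array was Mir22, 290 kb away.

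The arrays differed in brightness, which bears on everything below. The total gene signal, the scanner software's sum over all miRNAs, was 35150 ± 14362 on the RapCA arrays and 69834 ± 9956 on the Control arrays (SD, n = 4 each; intensity units, unscaled). RapCA replicate 1 stood apart at 56618, near the dimmest Control array at 59506, while the other RapCA arrays lay between 26374 and 29218. The spike-in RNAs averaged 1255 ± 129 on the RapCA arrays and 1254 ± 108 on the Control arrays (geometric mean of 4 RNAs, SD, n = 4 each). At which step they were added was not checked. Per the file headers all 8 arrays lay on 1 slide and shared 1 scan, with the RapCA arrays in position column 2 and the Control arrays in position column 1, so position and group cannot be told apart. Fewer cells of a kind and less of a miRNA per cell cannot be told apart in such RNA.

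Of the pair, miR-212 was clearly detected on these arrays and miR-132 was not well above background. Whether the probes also bind other RNAs was not tested. miR-212 was called detected on 4 of 4 RapCA arrays and 4 of 4 Control arrays by the scanner software. miR-132 was called detected on 0 of 4 RapCA arrays and on 1 of 4 Control arrays, replicate 3, where 1 of its 18 kept spots was well above background. All spots of miR-212, 100% on each of the 8 arrays, were positive and significant against the local background.

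The brighter probe of miR-212 (A_54_P2617) read 78.2, 38.5, 45.1 and 44.8 in RapCA replicates 1 to 4 (mean processed signal over kept spots, intensity units, unscaled). On the Control arrays it read 85.3, 66.9, 73.7 and 82.2. RapCA replicate 1 lay inside the Control range and the other RapCA arrays lay below it. The dimmer probe (A_54_P2616) read 28.0, 13.0, 13.0 and 14.5 in RapCA replicates 1 to 4, and 30.6, 19.8, 24.9 and 26.0 in Control replicates 1 to 4. As with the brighter probe, 1 RapCA array lay inside the Control range and 3 lay below it. The coefficient of variation between spots of 1 array was 4.90% to 10.8% for the brighter probe and 5.99% to 24.9% for the dimmer one. The log2 ratio of the brighter over the dimmer probe was 1.62 ± 0.13 in RapCA and 1.62 ± 0.12 in Control (SD, n = 4 each; two-sided exact permutation p = 0.943), so both probes moved by much the same factor.

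Kept spots of miR-212 that were well above background made up 100%, 68.4%, 89.5% and 88.9% in RapCA replicates 1 to 4. In Control replicates 1 to 4 they made up 100%, 94.7%, 100% and 100%. The missing spots came from the dimmer probe, of which 3 of 9 kept spots passed in RapCA replicate 2. The groups averaged 86.7% ± 13.2 in RapCA and 98.7% ± 2.63 in Control (SD, n = 4 each), a difference of -11.99 percentage points that did not pass (two-sided exact permutation p = 0.143). Without RapCA replicate 1, the bright array, it was -16.4 (exact permutation p = 0.0286, the smallest possible).

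**Figure D1:**
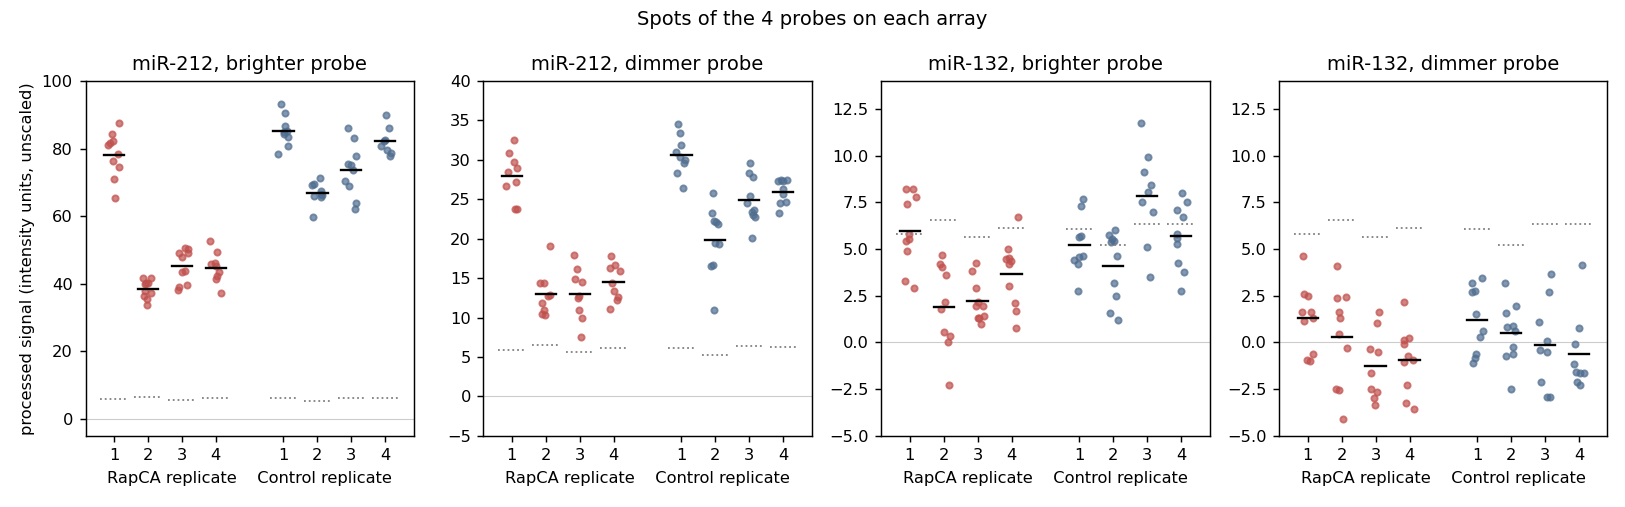
Processed signal (intensity units, unscaled) of every kept spot of the 4 probes, by RapCA and Control replicate, with the array mean as a black bar and the level below which 95% of that array's negative-control spots lay as a dotted line. Both probes of miR-212 lie above the dotted line on all 8 arrays, while the spots of miR-132 scatter around or below it.

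The brighter probe of miR-132 (A_54_P1054) read 5.96, 1.92, 2.21 and 3.69 in RapCA replicates 1 to 4, and 5.21, 4.11, 7.82 and 5.68 in Control replicates 1 to 4 (processed signal, unscaled). The groups overlapped, with RapCA replicate 1 above 3 of the 4 Control arrays. The dimmer probe (A_54_P1055) read between -1.25 and 1.28 in RapCA and between -0.62 and 1.20 in Control, around 0 and below the mean of the negative-control spots, which was 2.37 to 3.02 in RapCA and 2.18 to 2.90 in Control. Of the brighter probe's kept spots, 4, 0, 0 and 1 of 10 lay above the 95th percentile of the negative controls in RapCA replicates 1 to 4. In Control replicates 1 to 4 these were 2 of 9, 5 of 10, 7 of 9 and 4 of 10.

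The brighter miR-132 probe thus averaged 3.44 ± 1.85 in RapCA and 5.71 ± 1.56 in Control (SD, n = 4 each), a difference of -2.26 that did not pass (two-sided exact permutation p = 0.143). With each array scaled for brightness the difference was 0.690 (exact permutation p = 0.543), so its direction depended on the scaling. By the flag for positive and significant spots miR-132 had 36.5% ± 19.9 in RapCA and 56.9% ± 12.1 in Control (SD, n = 4 each; exact permutation p = 0.143). In the scaling described next miR-132 lay at the floor of 3.26 on 7 arrays and at 3.28 in RapCA replicate 4 (log2 signal), so it had no measured level to compare, and no fold is given. A difference in miR-132 was not detectable at this signal, and whether the pair changed unequally could not be tested.

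For the comparison between groups, each array was scaled so that the 75th percentile of 189 probes detected on all 8 arrays was equal, and values were put on a log2 scale. miR-212 then had 5.08, 5.42, 5.38 and 5.51 in RapCA replicates 1 to 4, and 5.16, 4.55, 4.63 and 5.32 in Control replicates 1 to 4. The groups overlapped: RapCA replicate 1 lay below Control replicates 1 and 4, and Control replicates 2 and 3, the brightest arrays, were lowest. The mean was 5.35 ± 0.18 in RapCA and 4.92 ± 0.38 in Control (SD, n = 4 each). The log2 difference of 0.43 ± 0.18 (SE; 95% confidence interval 0.02 to 0.84) was not called (limma, adjusted p = 0.0545 over 168 tested miRNAs, unadjusted p = 0.0419). In the same fit 26.2% of the 168 miRNAs were called raised and 50.0% lowered.

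The result lay close to the threshold, and leaving out 1 culture moved it to either side. It was called raised without RapCA replicate 1 (0.52, adjusted p = 0.0268), without RapCA replicate 2 (0.61, adjusted p = 0.0217), without Control replicate 1 (0.53, adjusted p = 0.0385) and without Control replicate 4 (0.58, adjusted p = 0.012). With any 1 of the other 4 left out it was not called, with adjusted p-values of 0.0973 and 0.11 (RapCA replicates 3 and 4) and of 0.151 and 0.147 (Control replicates 2 and 3). In these 8 fits 23.2% to 29.2% of tested miRNAs were called raised. The probes gave 0.44 ± 0.18 for the brighter (adjusted p = 0.048) and 0.42 ± 0.18 for the dimmer (adjusted p = 0.0591; SE, limma over 292 probes).

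**Figure D2:**
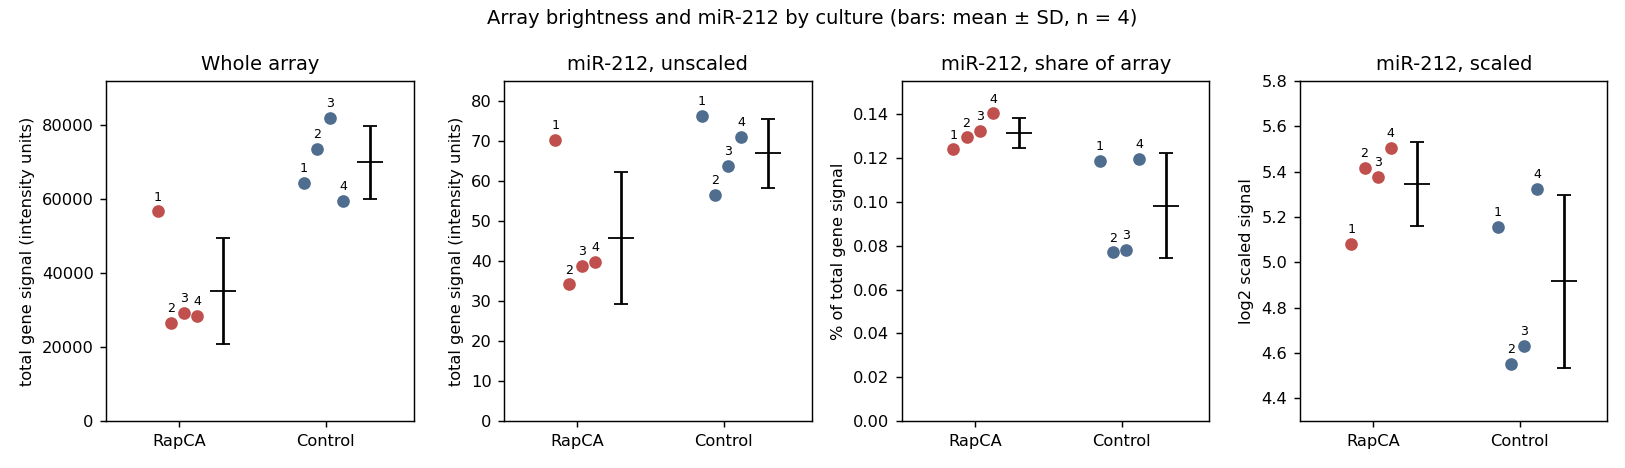
From left to right, total gene signal of each array (intensity units), total gene signal of miR-212, the percentage of each array's total due to miR-212, and the log2 scaled signal of miR-212, with RapCA left and Control right. Numbers are replicates, bars are mean ± SD (n = 4); the last axis does not start at 0. Unscaled, RapCA replicate 1 lies with Control, while as a share of the array all RapCA cultures lie above all Control cultures.

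The direction depended on how brightness was treated. Without scaling miR-212 had a log2 difference of -0.61 ± 0.25 (SE; limma adjusted p = 0.0503), and with scaling to the spike-in RNAs -0.61 ± 0.28 (adjusted p = 0.0763). With the 75th percentile over all probes it was 0.02 ± 0.16 (adjusted p = 0.905), and with total signal as a covariate -0.13 ± 0.25 (adjusted p = 0.666). Total signal was lower on every RapCA array than on every Control array, so this covariate can hardly be separated from the group. The scanner software's total signal of miR-212 was 45.8 ± 16.5 in RapCA and 67 ± 8.64 in Control (SD, n = 4 each; intensity units, exact permutation p = 0.0857).

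Set against the other miRNAs, miR-212 was on the higher side under all of these settings. The median log2 change of all 168 was -0.30 in the first scaling, so miR-212 lay 0.73 above it, and 43 miRNAs had a higher change. Without scaling the median was -1.03 and miR-212 lay 0.42 above it, and with the percentile over all probes the median was -0.61 and miR-212 lay 0.63 above it. With the brightness covariate it lay 0.19 above a median of -0.32.

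As a share of the array's total gene signal miR-212 held 0.124%, 0.13%, 0.133% and 0.14% in RapCA replicates 1 to 4. In Control replicates 1 to 4 it held 0.119%, 0.077%, 0.078% and 0.12%. Every RapCA culture lay above every Control culture, with means of 0.132% ± 0.0068 and 0.0983% ± 0.0241 (RapCA and Control, SD, n = 4 each), a ratio of 1.34. This was the smallest possible p for the design (exact permutation p = 0.0286), but 0.224 after adjustment over the 11 measures compared for the pair. A single measure at that smallest p cannot pass this adjustment on its own, so the adjusted value decides nothing. Of 139 miRNAs detected on all 8 arrays, 30.2% had shares that were higher in every RapCA culture and 38.8% lower in every one. The total that divides each share fell to 0.503 of the Control mean in RapCA.

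**Figure D3:**
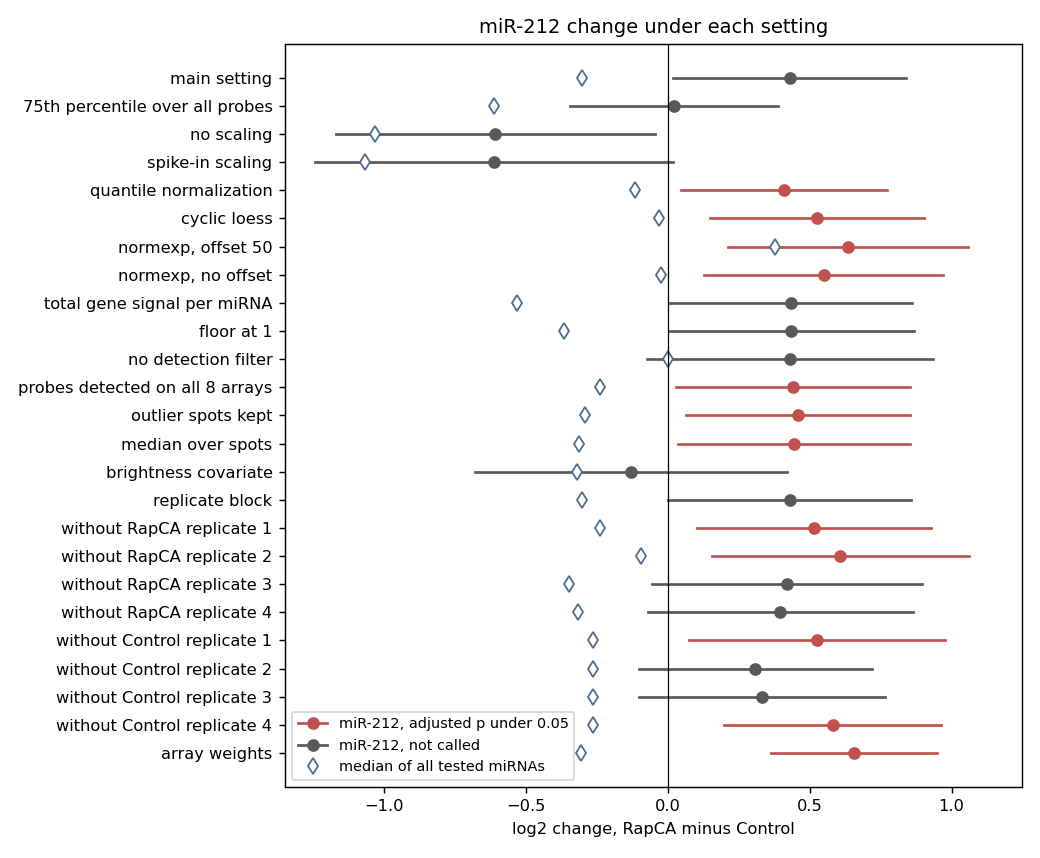
log2 change of miR-212 (RapCA minus Control) with its 95% confidence interval under each setting of the fit, red where the limma adjusted p was under 0.05, and the median change of all tested miRNAs as open diamonds. miR-212 lies right of the median under every setting drawn, while its sign differs without scaling, with spike-in scaling and with the brightness covariate.

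The nearest miRNA gene with probes on the array is Mir22, which makes an abundant miRNA of muscle. miR-22 had 9.25, 9.33, 9.28 and 9.28 in RapCA replicates 1 to 4, and 9.33, 9.53, 9.54 and 9.28 in Control replicates 1 to 4 (log2 scaled signal). Its log2 difference of -0.13 ± 0.09 (SE, n = 4 per group) was not called (limma adjusted p = 0.205). By limma miR-22 was called lowered with the percentile over all probes (-0.54, adjusted p = 0.00414) and without scaling (-1.20, adjusted p = 0.00892). The same held with spike-in scaling (-1.20, adjusted p = 0.0148) and array weights (-0.19, adjusted p = 0.0324). In that order, these settings called 61.3%, 67.3%, 66.1% and 54.2% of all tested miRNAs lowered. The star form miR-22* was detected on 1 of 4 RapCA arrays and on 4 of 4 Control arrays and was not tested.

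Of 9 other miRNAs linked in the literature to CREB or cyclic AMP, all on the array, 3 could be tested, and 0 were raised, 2 lowered and 1 not called, where 26.2% of all tested were raised and 50.0% lowered. The 2 lowered ones passed the detection filter through the Control arrays alone. With probes detected on all 8 arrays 1 member was tested and 0 were called, where 30.4% of all tested were raised and 49.6% lowered. The counts also depended on the processing. They were 2 raised and 0 lowered by normexp with an offset of 50, where 45.2% of all tested were raised and 11.9% lowered. By cyclic loess 1 was raised and 0 lowered, against 31.5% and 31.5% of all tested. The brightness covariate gave 1 raised and 2 lowered, against 20.8% and 44.0%. miR-34b-5p, of a p53-induced cluster whose product can repress CREB, had 0.31 ± 0.25 (SE) and was not called (limma adjusted p = 0.272), but was called raised with cyclic loess (0.68), normexp with an offset of 50 (0.48) and the brightness covariate (0.985). miR-134, which can repress CREB in neurons, had 3.27 ± 0.0035 in RapCA and 3.67 ± 0.19 in Control (SD, n = 4 each, log2 scaled; adjusted p = 0.00513 by limma). It was detected on 1 of 4 RapCA arrays. miR-433 had 3.28 ± 0.02 in RapCA and 3.86 ± 0.25 in Control (limma adjusted p = 0.00186) and was detected on 0 of 4 RapCA arrays. The RapCA values of these 2 lie at or near the floor, where variation among RapCA cultures cannot be seen, so no fold is given for either. The call of miR-134 was lost without RapCA replicate 2 and with no detection filter. It was also lost with quantile normalization (0.11), cyclic loess (-0.19) and normexp without an offset (0.0081). With normexp and an offset of 50 miR-134 was called raised (0.58, limma adjusted p = 0.0322). miR-9, miR-9*, miR-34b-3p, miR-124 and miR-375 were detected on no array, and miR-182 on 1 of 4 RapCA arrays and 3 of 4 Control arrays.

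Of 9 miRNAs linked to angiotensin II or to injury of vascular smooth muscle, 8 were tested, with 4 raised, 2 lowered and 2 not called and a median log2 change of 0.15, against 26.2% raised, 50.0% lowered and a median of -0.30 over all tested. With probes detected on all 8 arrays 7 were tested, with 4 raised and 1 lowered, against 30.4% and 49.6% of all tested. The raised ones were miR-155, an inflammatory miRNA (1.52 ± 0.12), miR-29b, which targets collagens (1.503 ± 0.35), miR-222 (0.995 ± 0.11) and miR-31 (0.24 ± 0.08; log2 ± SE, n = 4 per group, limma). miR-143 (-1.62 ± 0.15) and miR-145, the pair of contractile smooth muscle, were lowered, and miR-145 was detected on 0 of 4 RapCA arrays. miR-21 (-0.03 ± 0.18) and miR-221 (0.07 ± 0.09) were not called. The call of miR-31 was lost without RapCA replicate 3 (0.22). It was also lost with the replicate number as a block (adjusted p = 0.0828, limma), which left 3 raised, where 24.4% of all tested were raised. Without scaling the list had 0 raised and 5 lowered and a median of -0.88, against 5.95% raised, 67.3% lowered and a median of -1.03 over all tested. Without RapCA replicate 1 both lists had the same counts, 0 raised and 2 lowered for CREB, and 4 raised and 2 lowered here. In that fit 29.2% of all tested miRNAs were raised and 48.8% lowered.

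**Figure D4:**
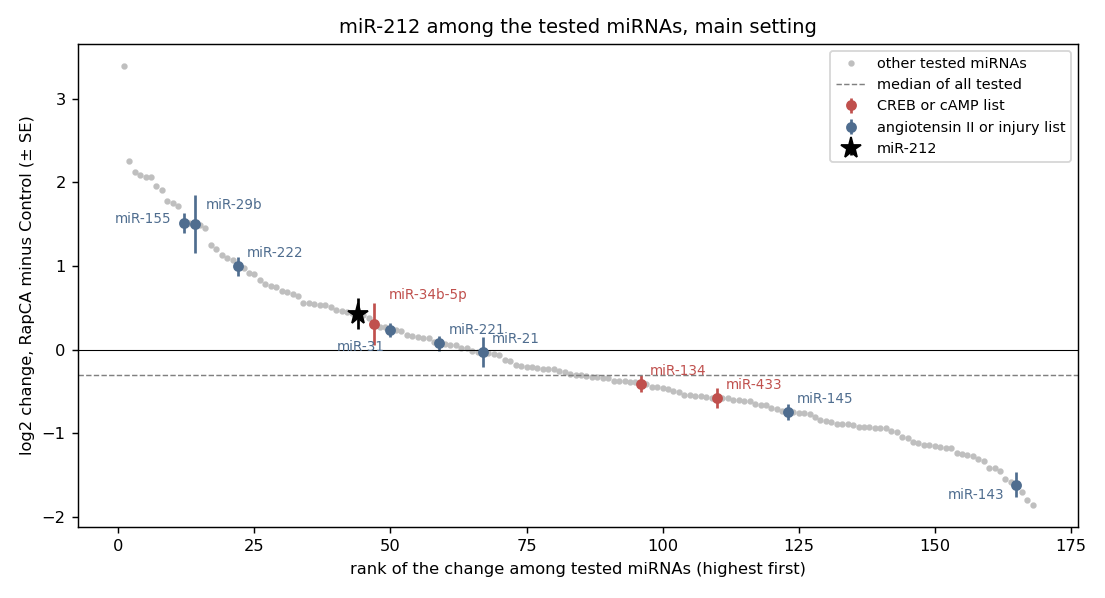
log2 change (RapCA minus Control) of the 168 tested miRNAs in order, with miR-212 as a star and the members of both lists coloured, bars showing SE. miR-212 lies above the dashed median of -0.30, between the strongly raised members of the angiotensin II or injury list and those near 0.

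Markers of other cell types were read beside the pair. Those of endothelium (2 miRNAs), blood (4) and epithelium (6) were detected on 0 arrays. Of 4 neuronal miRNAs, the cell type in which the pair is best known, miR-128 was detected, on 1 of 4 RapCA and 4 of 4 Control arrays, while miR-9, miR-9* and miR-124 were not. The summed signal of these 4 was 0.40 to 7.56 in RapCA and 6.49 to 11.6 in Control (intensity units). Of 7 miRNAs of striated muscle, miR-206 alone was detected, on all 8 arrays. The smooth muscle pair miR-143 and miR-145 summed to 46.2 ± 34.9 in RapCA and 271 ± 65.4 in Control (SD, n = 4 each; unscaled). The part of other cell types in the miR-212 values was not tested beyond these counts.

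The 5 tested miRNAs whose log2 signal followed miR-212 most closely over the 8 arrays were miR-1198 (Pearson's r = 0.971), the mouse cytomegalovirus probe set mcmv-miR-M23-1-5p (0.959), miR-202-3p (0.925), miR-29b* (0.904) and miR-1904 (0.876). These values describe 8 arrays that share the same scaling, and all 5 sets also followed the order in which Control replicates 2 and 3, the brightest arrays, were lowest. miR-1198 had a log2 difference of 0.51 ± 0.17, the cytomegalovirus set 0.56 ± 0.21, miR-202-3p 0.64 ± 0.18 and miR-1904 0.91 ± 0.18 (SE), all called raised by limma. miR-29b*, at 0.14 ± 0.10, was not called. Over all tested miRNAs 26.2% were called raised. The 5 were picked by correlation over all 8 arrays, so the group difference was part of that choice. That they share the direction of miR-212 is therefore no separate evidence. The call of miR-1198 was lost without RapCA replicate 3 (0.48) and without Control replicates 2 (0.399) or 3 (0.401), and that of the cytomegalovirus set without RapCA replicates 3 (0.486) or 4 (0.51) and without Control replicates 2 (0.44) or 3 (0.48). With the percentile over all probes miR-1198 (0.11, adjusted p = 0.519), the cytomegalovirus set (0.15, adjusted p = 0.49) and miR-202-3p (0.23, adjusted p = 0.2) were not called by limma, nor was miR-1198 with cyclic loess (0.16). With the brightness covariate the raised ones all lost their limma calls. These were miR-1198 (-0.042, adjusted p = 0.874), the cytomegalovirus set (-0.26, adjusted p = 0.337), miR-202-3p (0.13, adjusted p = 0.67) and miR-1904 (0.34, adjusted p = 0.227). The cytomegalovirus set also lost its limma call with total gene signal (0.49, adjusted p = 0.0601). Without scaling, the values of all 5 look-alikes were below 0. What the cytomegalovirus probes bind in these cells was not tested. The tested miRNAs next to miR-212 in mean signal were miR-148a, called lowered, and miR-129-3p, called raised.

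**Figure D5:**
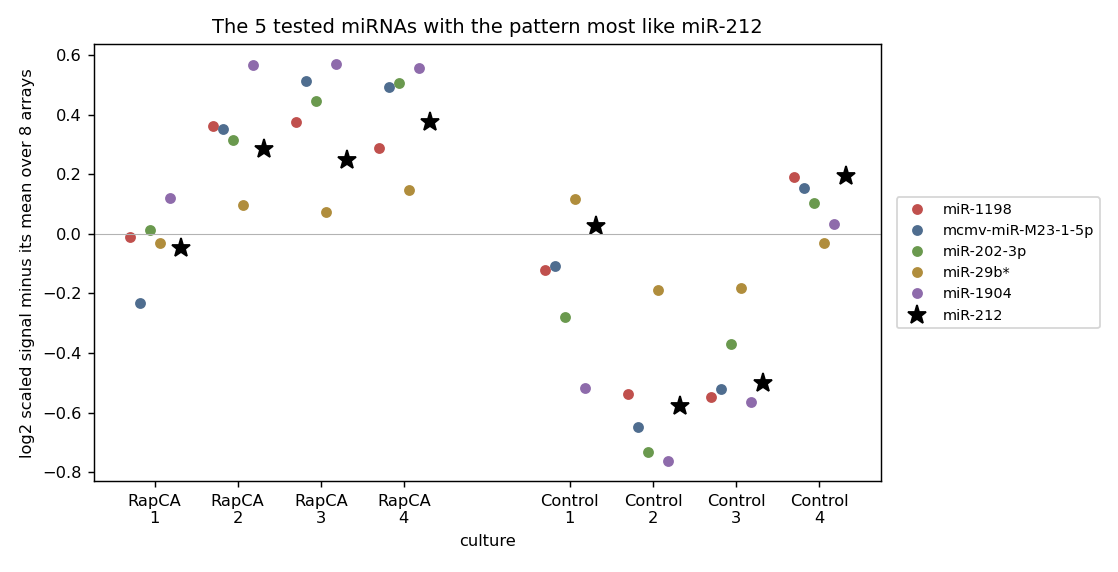
log2 scaled signal of miR-212 (stars) and of the 5 tested miRNAs most like it (circles), each minus its own mean over the 8 arrays, by culture. miR-212 is highest in RapCA replicate 4 and lowest in Control replicates 2 and 3.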

How the data were processed

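RNA of 4 RapCA and 4 Control cultures was read on 1 array each. The authors read spot intensity with Feature Extraction 10.7.3.1, per the file headers (10.7 per the submitters' processing notes). The deposited processed intensity had its background subtracted and was not scaled between arrays. No spot was saturated (0 on every array).

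Control spots and spots with an outlier flag (2.98% to 4.66% per array) were left out. A probe was detected when the well-above-background flag was set for over 0.5 of its spots. Signals were scaled to the 75th percentile of 189 probes detected on all arrays, floored at 9.61 and put on a log2 scale. Probes detected on all arrays of a group were averaged per miRNA, leaving 168 miRNAs for limma 3.58.1 in R 4.3.3 (two-sided, Benjamini-Hochberg, threshold 0.05). Single values per array had exact permutation tests (two-sided, smallest p 0.0286). Arrays give no counts, and their number limits the precision.

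The files hold no mean spot signal, so normexp used median signals. Named miRNAs followed a fixed rule: the 5 most like miR-212 in correlation, seed sharers, miRNAs within 1 Mb, 2 literature lists, neighbours in level and cell markers. The members and lists were chosen with earlier results of these data known. The authors' table of 54 miRNAs held 0 members and was not used. On simulated arrays changes of 1 or 2 on the log2 scale were put into brighter miRNAs, in either direction. All of those that were tested were recovered, and nothing was called where nothing changed. The simulated spread between arrays was set smaller than that of miR-212 among the Control cultures, which made recovery easier. Changes as small as that of miR-212 were not simulated, so their recovery is not known. Where part of the brighter miRNAs changed, however, the percentile scaling itself moved the unchanged ones up or down, and some of those were called. False calls in that simulation exceeded what the threshold allows.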

Additional observations from a re-analysis of the deposited data

Results flagged for a closer look

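Values far from the others of their group were looked for in 20 sets of 4 arrays, and chance alone marks about 1 in 20. RapCA replicate 1 stood above the other RapCA arrays in total gene signal (56618 intensity units), in total signal of miR-212 (70.2) and in the processed signal of its dimmer probe (28.0) and brighter probe (78.2). These 4 values come from the same array and are not independent. Control replicate 2 had 94.7% of miR-212 spots well above background, against 100% on the other Control arrays. Control replicate 3 had 5.56% of miR-132 spots well above background, 1 of 18, against 0 on the other Control arrays. In both of these percentages the other Control arrays were tied. Any single differing value is then marked, so the rate of 1 in 20 does not hold for them.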

How the results depend on the processing

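Of 26 alternatives for miR-212, limma called it raised in 13, lowered in 0 (1 at an unadjusted p under 0.05), and did not call it in 10 above 0 and 3 below 0. It was raised with quantile normalization (0.41), cyclic loess (0.52), normexp with an offset of 50 (0.63) or none (0.55), probes detected on all 8 arrays (0.44), outlier spots kept (0.46), the median over spots (0.44), the brighter probe alone (0.44) and array weights (0.66, adjusted p = 0.000794). The last 2 were chosen after seeing the data. Of all tested miRNAs, 31.5% were raised with quantile normalization and 31.5% with cyclic loess. Normexp raised 45.2% with the offset and 31.0% without. The share was 30.4% with probes detected on all 8 arrays and 29.2% with array weights. It was 27.4% both with outlier spots kept and with the median over spots. With the offset of 50 the median change was 0.38, and miR-212 lay 0.26 above it. miR-212 turned below 0 without scaling (-0.61), with spike-in scaling (-0.61) and with the brightness covariate (-0.13). Leaving out 1 array gave 0.31 to 0.61. The causes were not tested. With no detection filter its adjusted p was 0.317, over 650 miRNAs, and miR-132 at the floor had 0.004 (adjusted p = 0.698). Leaving out 1 array moved the difference in miR-212 spots well above background between -16.4 and -5.90 percentage points, that in the share of total signal between 0.0262 and 0.0404 percentage points (no longer at the threshold without any 1 RapCA array, exact permutation p = 0.0857 to 0.114), and that in the brighter miR-132 probe between -3.10 and -1.55. With scaled signal the last was 0.690. That result and the share were added after seeing the data. Of all miRNAs tested, 44 were called raised, against 28 with the percentile over all probes, 10 unscaled, 9 with spike-in scaling and 76 with normexp and an offset of 50; 84 were lowered, against 20 with that last setting, 53 with cyclic loess and 54 with normexp and no offset.

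The deviations of same-numbered cultures from their group means had correlations of -0.65, -0.60, -0.55 and 0.63 for replicates 1 to 4. Pairing by number was thus not seen throughout, and these few values cannot decide it. In both groups the replicate number was also the position row on the slide. With the replicate block miR-212 kept 0.43 (limma adjusted p = 0.0664), and miR-31 lost its call (0.24, adjusted p = 0.0828).

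Among the other named miRNAs, signs turned as follows. Unscaled, then scaled to spike-ins: miR-1198 (-0.37, -0.38), mcmv-miR-M23-1-5p (-0.51, -0.51), miR-202-3p (-0.42, -0.42), miR-29b* (-0.26, -0.28), miR-1904 (-0.095, -0.091), miR-129-3p (-0.38, -0.37), miR-34b-5p (-0.76, -0.76), miR-31 (-0.83, -0.83), miR-221 (-0.996, -0.99) and miR-222 (-0.0066, -0.0017). With the percentile over all probes: miR-29b* (-0.11), miR-34b-5p (-0.10), miR-31 (-0.17) and miR-221 (-0.34). With the brightness covariate: miR-1198 (-0.042), mcmv-miR-M23-1-5p (-0.26), miR-29b* (-0.053), miR-221 (-0.18) and miR-21 (0.49). With normexp and an offset of 50: miR-148a (0.15), miR-134 (0.58), miR-433 (0.51) and miR-145 (0.43), and without an offset miR-134 (0.0081). With quantile normalization: miR-134 (0.11) and miR-21 (0.066). With cyclic loess: miR-22 (0.18) and miR-21 (0.13). With total gene signal: miR-29b* (-2.05) and miR-21 (0.031). Without 1 array: miR-22 (0.056 without RapCA replicate 2) and miR-21 (between -0.14 and 0.23).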
